A study of Homo sapiens with 2 samples.

Results

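IFI44L with IFI44, and CMPK2 with RSAD2, are pairs of interferon-stimulated genes that lie next to each other on chromosomes 1 and 2. Their probes were found through the RefSeq accessions that the array files give, and each of the 4 genes had 1 probe, which was measured in every case. They are 4 of 13812 genes measured on these arrays. The genes were chosen with their ratios on these same arrays known, so that their values are a description and carry no test.

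The data come from RWPE-1, a human line of noncancerous prostate epithelial cells that was immortalised with a papillomavirus and grown in keratinocyte serum-free medium. Cells received a synthetic precursor of the microRNA miR-424 (pre-miR-424) or a negative control precursor, at 30 nM, and both RNAs shared 1 array in Cy5 and Cy3. A second array with the dyes exchanged (dye swap) is a technical replicate of the first, so that 1 replicate of the comparison exists. The time between transfection and RNA extraction is not given in the sources used here. All ratios are given as pre-miR-424 over control, with the swap turned to the same direction. In RNA from a whole culture, a higher level per cell and a larger share of cells with the transcript cannot be told apart.

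Type I and type III interferons bind receptors that act through the kinases JAK1 and TYK2 on transcription factors, among them STAT2 with IRF9, which bind interferon-stimulated response elements before target genes. IFI44L and IFI44 encode related cytoplasmic proteins of the antiviral response. CMPK2 encodes a mitochondrial nucleotide kinase that phosphorylates pyrimidine monophosphates, and RSAD2 encodes viperin, a radical SAM enzyme that turns the nucleotide CTP into an antiviral analogue. CMPK2 and RSAD2 are transcribed away from each other, whereas IFI44L and IFI44 run in the same direction.

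The stretches before the RNA starts of these genes are given because the genes of each pair lie side by side and were higher together. They are RefSeq sequences on GRCh38.p14, 5′ to 3′ along the strand of the gene. Capitals mark matches on either strand to GAAANNGAAA (TTTCNNTTTC on the other strand), the core of the response element, or to the shorter GAAANGAAA (TTTCNTTTC on the other strand). The IFI44L stretch is chr1:78620198-78620447 (plus strand), that of IFI44 is chr1:78649539-78649788 (plus strand), and that of RSAD2 is chr2:6877527-6877776 (plus strand), each being the 250 bases before an RNA start. CMPK2 has 3 RNA starts, and only the 30 bases before the start at 6865819, chr2:6865820-6865849 (minus strand), are shown. This stretch was picked because it holds a match, which was not found near the other starts.
IFI44L: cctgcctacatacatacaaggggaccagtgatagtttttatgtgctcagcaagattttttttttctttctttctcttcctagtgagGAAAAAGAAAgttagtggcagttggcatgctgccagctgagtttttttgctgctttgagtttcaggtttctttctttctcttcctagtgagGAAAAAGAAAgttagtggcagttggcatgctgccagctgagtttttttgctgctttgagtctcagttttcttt
IFI44: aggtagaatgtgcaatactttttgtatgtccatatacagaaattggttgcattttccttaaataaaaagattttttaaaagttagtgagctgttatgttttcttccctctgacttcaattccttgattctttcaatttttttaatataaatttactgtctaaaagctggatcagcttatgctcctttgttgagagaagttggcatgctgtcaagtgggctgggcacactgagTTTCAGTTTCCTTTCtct
CMPK2: cgcctgggcctccggcTTTCGTTTCcccgc
RSAD2: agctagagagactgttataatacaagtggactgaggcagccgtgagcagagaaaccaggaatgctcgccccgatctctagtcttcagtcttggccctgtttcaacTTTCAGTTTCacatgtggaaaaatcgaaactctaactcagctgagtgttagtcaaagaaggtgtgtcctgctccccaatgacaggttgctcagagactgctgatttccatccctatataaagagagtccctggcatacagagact

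The IFI44L stretch held GAAAAAGAAA at 2 places, beginning 164 and 73 bases before the RNA start. These lay in a run of 85 bases that occurred again 91 bases further on. In the IFI44 stretch, TTTCAGTTTC began 18 bases and TTTCCTTTC 12 bases before the start, and the matches overlapped. A run of 13 bases, agttggcatgctg, was shared by the neighbours. It occurred 2 times in the IFI44L window and was held by 3 of 35116 promoter windows in the RefSeq table (0.00854%), all of them windows of IFI44L or IFI44. The run was picked as the longest that both genes share, so its presence in their windows was given. The 2 windows of IFI44 overlap, and other runs of this length were not counted, so nothing is read from its rarity. Each window covers 250 bases before to 50 after an RNA start, and the 4 genes have 8 of them.

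CMPK2 and RSAD2 share sequence in another way. From the CMPK2 start picked above, at position 6865819, and an RSAD2 start at 6865885, which are 66 bases apart on opposite strands, the windows have 165 bases in common. In the CMPK2 window TTTCGTTTC began 14 bases before the start (in capitals in its stretch) and again 10 bases after it. Both matches are the same bases that, read on the other strand, are GAAACGAAA at 60 and 84 bases before the RSAD2 start. That RSAD2 window held 2 further copies of GAAACGAAA, at 152 and 118 bases before the start. The printed RSAD2 stretch belongs to another start, 11958 bases from that of CMPK2, and held TTTCAGTTTC at 145 bases before it. The other 2 windows of CMPK2 held neither motif. Across all windows of the table, 3.57% held GAAANNGAAA and 3.12% held GAAANGAAA. The palindromic motif TTCNNNGAA, also searched, was in 7.66% of windows and in 0 of these 8. A match is a description of the letters in a window and shows no binding, and which RNA start RWPE-1 cells use was not measured.

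The transfected precursor is processed to the strands of miR-424, and the labels name no strand. Both mature sequences of RefSeq are given, with the seed (bases 2 to 8) in capitals.
hsa-miR-424-5p: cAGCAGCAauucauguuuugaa
hsa-miR-424-3p: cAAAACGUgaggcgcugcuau

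Over all 58717 spots, the median signal was 189 to 290 on the array with normal labelling and 165 to 314 on the swap, with Cy5 the brighter dye on both. The arrays had 66.8% to 70.1% of spots well above background and 0 saturated spots. Well above background were 5 of 5 basal prostate markers (KRT5, KRT14, TP63, ITGA6 and CDH3), 4 of 4 general epithelial markers and 2 of 5 luminal markers, with KLK3 below it. Of markers of other cells, 1 of 4 for fibroblasts, 2 of 4 for leukocytes and 1 of 3 for endothelium were well above background. A marker counted if at least 1 of its probes was. That was 1 of 4 probes for the leukocyte marker PTPRC and 1 of 2 for the luminal marker KLK2. The part of other cells in the ratios was not tested.

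IFI44L and CMPK2 rose with pre-miR-424, to 3.14-fold and 2.58-fold of the control. RSAD2 was 1.81-fold and IFI44 was 1.48-fold of the control, both above it on each array without reaching the 2-fold that defines a call here (each array at or beyond a log2 ratio of 1, with equal sign). Thus 2 of the 4 genes were called, 1 in each pair, where 0.0724% of the 13812 measured genes were called higher and 0.029% lower. Counted by probe, 0.0546% were called higher and 0.0857% lower. Probes that followed the dye, at least 2-fold higher in Cy5 on both arrays, were 0.0974%, and 0% were so in Cy3. Across measured probes, the ratios of the arrays, turned to the same direction, had a Pearson's r of 0.157. The ratios of the 4 genes are those by which they were chosen, and nothing is read from the count of 2 called. Higher on both arrays to any extent were all 4 genes and 26.8% of all genes, while 26.7% of all genes were lower on both.

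For IFI44L (NM_006820, probe A_23_P45871) the median spot signal with normal labelling was 6633 with pre-miR-424 (Cy5) and 1355 with the control (Cy3). On the swap it was 3618 with pre-miR-424 (Cy3) and 2325 with the control (Cy5). The pre-miR-424 channel was the brighter one whichever dye it carried. After background correction and loess, the log2 ratios were 1.69 and 1.62, with a mean of 1.65 ± 0.050 (SD, n = 2 arrays). IFI44L had the highest mean ratio of all 13812 genes.

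The SD between arrays rests on a single difference, so a second error was taken from other probes. It is the SD, over the 1000 measured probes nearest in brightness, of the arrays' difference divided by 2, and it covers labelling and hybridisation only. For IFI44L this error of the mean was 0.154, a small part of its ratio. Among those 1000 probes only that of IFI44L itself reached 1.65. The scanner software gave its ratio an error of 0.26 on each array on the log2 scale.

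IFI44 (NM_006417, probe A_23_P23074) had a median signal of 22524.5 with pre-miR-424 against 8768.5 with the control under normal labelling. On the swap the order was turned before normalization, with 11224 for pre-miR-424 in Cy3 and 16831 for the control in Cy5. After normalization both arrays placed pre-miR-424 above the control, with log2 ratios of 0.63 and 0.50. The mean was 0.57 ± 0.093 (SD, n = 2 arrays), at an error of 0.146 from probes of like brightness. IFI44 was at rank 147 of 13812 genes, and 7 of the 1000 probes of like brightness, its own among them, reached its mean.

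For CMPK2 (NM_207315, probe A_33_P3401826) the median signals were 1819 with pre-miR-424 and 464.5 with the control on the array with normal labelling. On the swap they were 1068.5 and 802. Again the pre-miR-424 channel was brighter with either dye. The log2 ratio was 1.37 on both arrays, with an SD between them of 0.00068. Arrays differ by far more at this brightness, where the error of the mean was 0.162, and the latter is the fairer measure of precision. CMPK2 had rank 3 among all genes.

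RSAD2 (NM_080657, probe A_24_P28722) was printed as 2 spots. With normal labelling the spots gave 1227 and 1045 for pre-miR-424 against 505.5 and 413 for the control. On the swap they gave 843 and 700 for pre-miR-424 in Cy3 against 827 and 669 for the control in Cy5, close to equal before the dyes were normalized. The spots of an array differed little from each other, with log2 ratios of 0.70 and 0.74 on the first array and 0.97 and 1.01 on the swap. The averages were 0.72 and 0.99, so that RSAD2 missed the 2-fold limit by a small margin on the swap and by more on the other array. Its mean was 0.85 ± 0.19 (SD, n = 2 arrays), with an error of 0.161 at like brightness and rank 37. The arrays, not the spots, made most of its spread. At a limit of 1.5-fold on both arrays RSAD2 was called and IFI44 was not, where 0.623% of all genes were called higher.

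**Figure D1:**
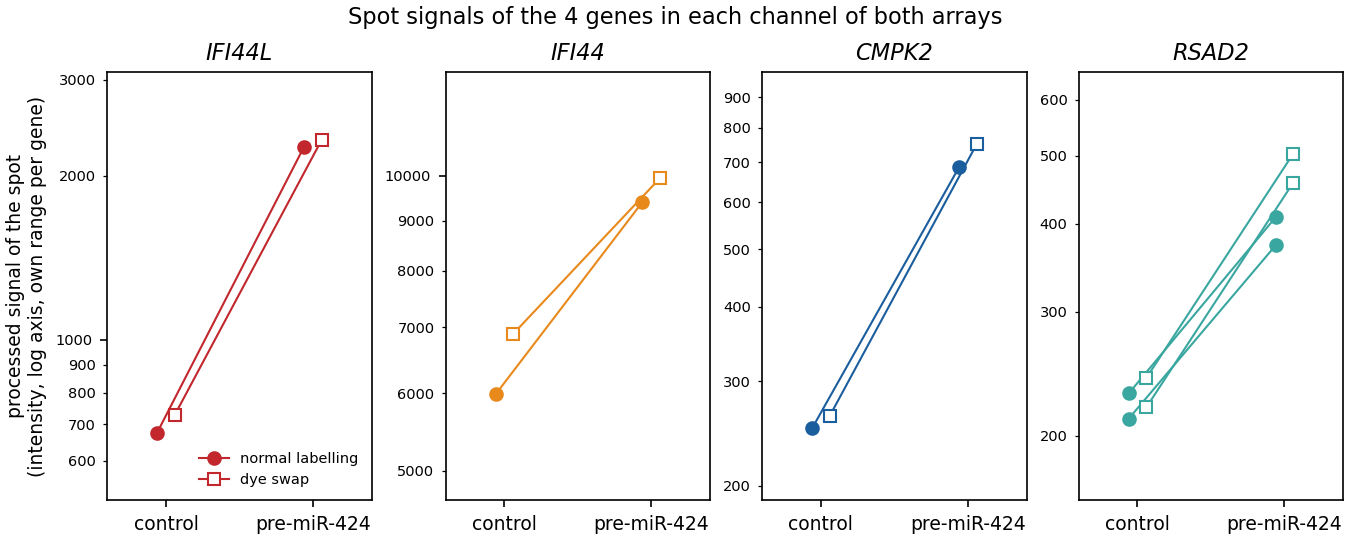
Processed spot signals of the 4 genes with control and pre-miR-424 RNA, as given by the scanner software after background and dye correction (intensity, log axis with its own range for each gene). Filled circles are the array with normal labelling, open squares are the dye swap, and each line joins the channels of 1 spot. All lines rise from control to pre-miR-424, for IFI44L from 675 to 2260 and from 728 to 2328, and for IFI44 from 5980 to 9402 and from 6895 to 9947.

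The scanner software's processed signals, which rest on its own dye correction, gave the same picture as the loess ratios. Pre-miR-424 was 3.35-fold and 3.20-fold of the control for IFI44L, and 1.57-fold and 1.44-fold for IFI44. The corresponding values for CMPK2 were 2.75-fold and 2.86-fold. RSAD2 came to 1.78-fold and 1.76-fold on its spots with normal labelling and to 2.09-fold on both spots of the swap. On these signals, too, 1 gene of each pair had the larger ratio on both arrays.

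The 2 genes of a pair were then compared by the difference of their log2 ratios within each array, which sets one change against another and not one level against another. IFI44L exceeded IFI44 by 1.05 on the array with normal labelling and by 1.11 on the swap. The mean difference was 1.08 ± 0.043 (SD, n = 2 arrays), so that the fold of IFI44L was 2.12 times that of IFI44. At like brightness the error of this difference was 0.212, which covers labelling and hybridisation only. Both neighbours on chromosome 1 stood above the control on both arrays, IFI44L by more than IFI44.

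RSAD2 was below CMPK2 by a log2 difference of −0.65 with normal labelling and −0.38 on the swap. The mean was −0.51 ± 0.19 (SD, n = 2 arrays), and the fold of RSAD2 was 0.701 times that of CMPK2. Its error at like brightness was 0.228. The direction was the same on both arrays. As the genes were chosen by these ratios, neither difference is a test. Differences between probes of different genes also hold what each probe adds in hybridisation, which 1 probe per gene cannot show.

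**Figure D2:**
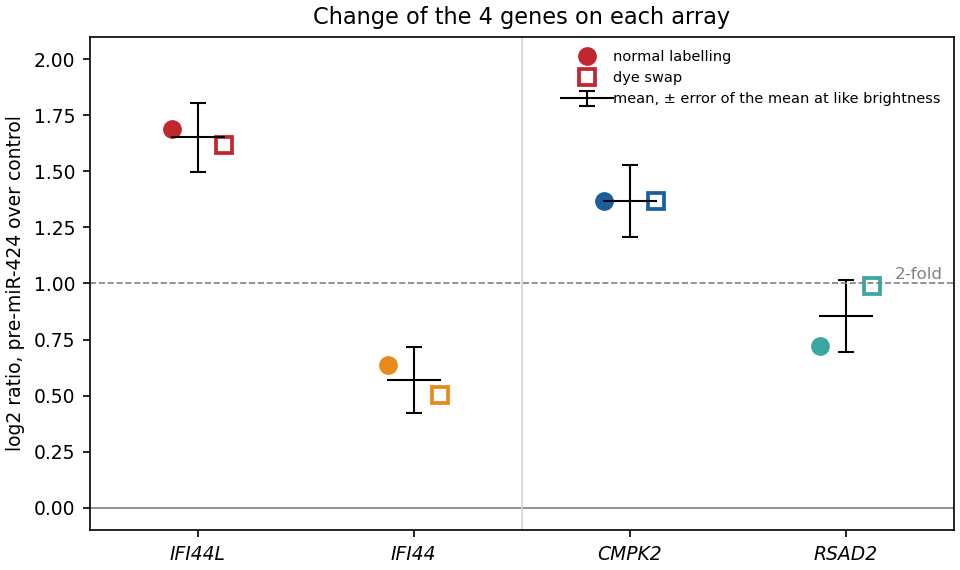
Log2 ratios of pre-miR-424 over control for the 4 genes on the array with normal labelling (filled circles) and the dye swap (open squares). Horizontal bars are the mean of both arrays, whiskers are ± the error of the mean at like brightness, and the dashed line is 2-fold. IFI44L (1.69 and 1.62) and CMPK2 (1.37 and 1.37) lie above the line on both arrays, while RSAD2 (0.72 and 0.99) and IFI44 (0.63 and 0.50) lie between 0 and the line.

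The order of the ratios was IFI44L, CMPK2, RSAD2 and IFI44 on both arrays. IFI44L stood above CMPK2 by 0.32 and 0.25, against an error of the mean difference of 0.224. RSAD2 stood above IFI44 by 0.09 and 0.48, against an error of 0.217. Neither step was well clear of its error. The higher gene of one pair was thus closer to the higher gene of the other pair, 0.29 away on average, than to its own neighbour. The mean ratios of RSAD2 and IFI44 were 0.28 apart, less than either was from its neighbour, but this did not hold on both arrays. On the swap RSAD2 was nearer to CMPK2, at 0.38, than to IFI44, at 0.48.

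Genes at or above the lowest value of the 4 (0.50, that of IFI44 on the swap) on both arrays were 0.956% of all measured genes. Of 9228 pairs of adjacent measured protein-coding genes, 10 (0.108%) had both genes at or above it, a count made after the values were seen. Beside IFI44L with IFI44 and CMPK2 with RSAD2, they were IFIT2 with IFIT3, OAS1 with OAS3, OAS3 with OAS2, MX2 with MX1, CXCL10 with CXCL11, IRF9 with REC8, IL23A with STAT2, and SCG5 with GREM1. Most belong to known interferon-induced clusters. The difference within a pair was 1.08 for IFI44L and IFI44 and 0.51 for CMPK2 and RSAD2, and between 0.0029 (SCG5 and GREM1) and 0.36 (IRF9 and REC8) in the other 8. Pairs that the 4 genes form entered this count through the values by which they had been chosen.

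**Figure D3:**
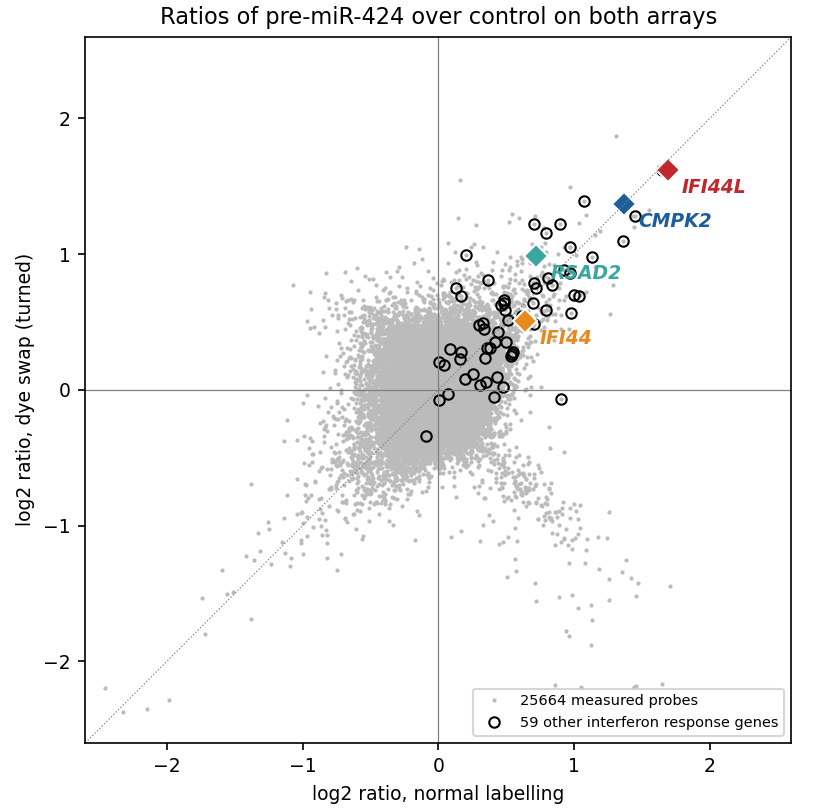
Log2 ratios of pre-miR-424 over control on the array with normal labelling (horizontal) and on the dye swap, turned to the same direction (vertical), for 25664 measured probes (grey), of which 2 lie outside the axes. Circles are 59 other interferon response genes and diamonds are IFI44L, CMPK2, RSAD2 and IFI44, with equal ratios on the dotted line. All 4 diamonds lie in the upper right, CMPK2 on the line and RSAD2 above it.

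Genes further along the chromosomes were examined next, 5 measured protein-coding genes on each side of each pair, in the order of the RefSeq gene table. Nearer genes that were not measured were passed over, 2 before and 1 after IFI44L with IFI44, and 5 before and 1 after CMPK2 with RSAD2. The genes directly beside the pairs were thus not seen. Of all measured genes, 0.0724% were called higher and 0.029% lower, so 0 calls among 10 genes say little. Beside IFI44L and IFI44, 0 of 10 genes were called, the median log2 ratio was −0.04 (−0.068 with normal labelling alone and 0.041 on the swap alone), and 1 gene was higher and 3 were lower on both arrays. The nearest measured genes were DNAJB4, a heat shock cochaperone, at −0.35 and 0.02, and ADGRL2, an adhesion G protein-coupled receptor, at −0.04 and 0.15. The highest was NEXN, an actin-binding protein gene, at 0.17 and 0.11. The lowest was MIGA1, a mitochondrial fusion factor, at −0.93 and −0.53. FUBP1, USP33, TTLL7, PRKACB, SAMD13 and RPF1 had mean ratios between −0.11 (TTLL7) and 0.08 (RPF1). No measured neighbour of this pair was as high as IFI44 on either array, and MIGA1 was further from 0 than IFI44, in the lower direction.

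Beside CMPK2 and RSAD2, 0 of 10 genes were called, with a median log2 ratio of 0.0081 (−0.097 with normal labelling alone and 0.131 on the swap alone), and 1 gene was higher and 1 was lower on both arrays. ID2, an inhibitor of helix-loop-helix transcription factors and the nearest measured gene on the RSAD2 side, was highest at 0.22 and 0.29. TRAPPC12, a subunit of a vesicle tethering complex, was lowest at −0.12 and −0.16. RPS7, a ribosomal protein gene and the nearest on the other side, gave 0.83 and −0.76, opposite signs that follow the Cy5 dye. RNASEH1, ADI1, EIPR1, KIDINS220, MBOAT2, ASAP2 and ITGB1BP1 had mean ratios between −0.08 (KIDINS220) and 0.05 (MBOAT2). The highest mean among the 20 neighbours, that of ID2 at 0.26, was below that of IFI44, the lowest of the 4 genes, at 0.57.

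**Figure D4:**
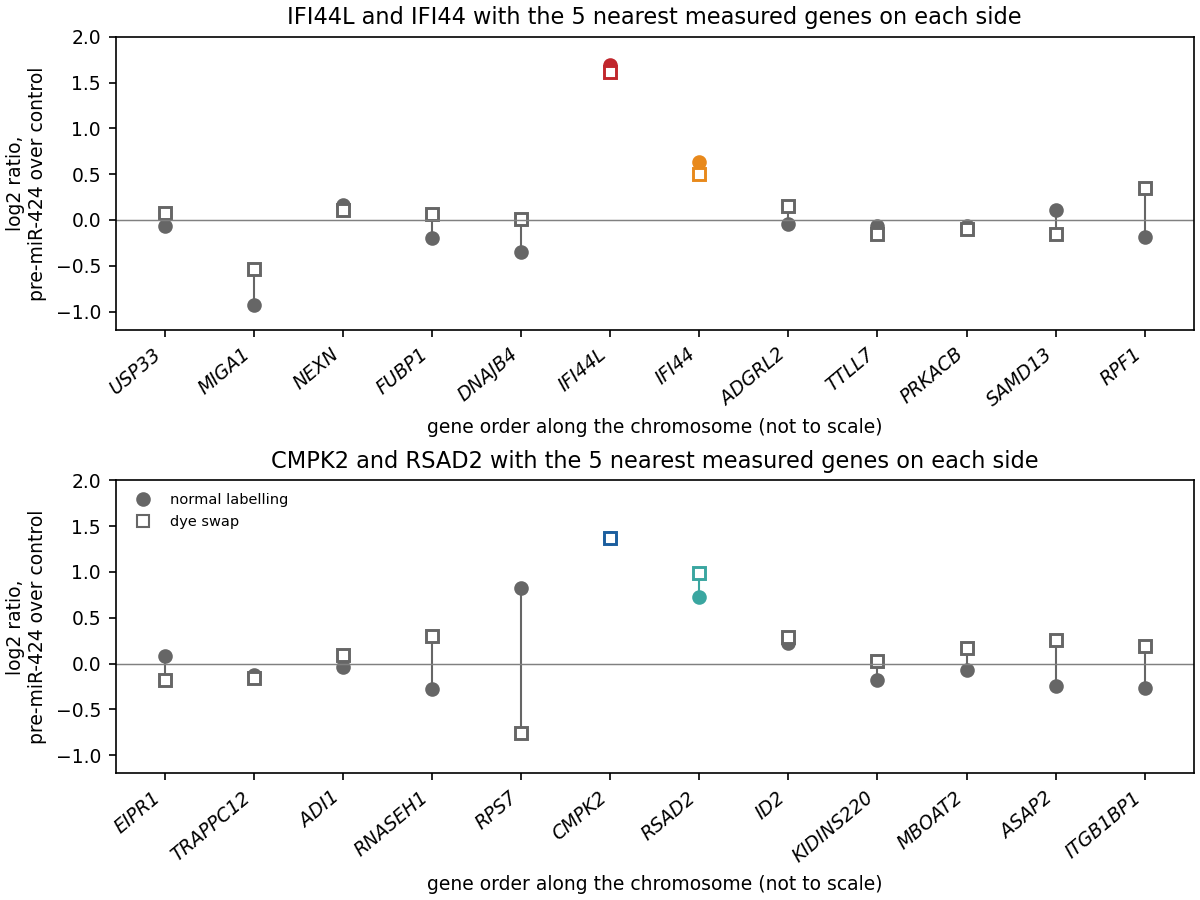
Log2 ratios of pre-miR-424 over control on the array with normal labelling (filled circles) and the dye swap (open squares) for each pair and the 5 nearest measured protein-coding genes on each side, in gene order and not to scale. Coloured points are IFI44L, IFI44, CMPK2 and RSAD2, and lines join the arrays. Among the 20 grey genes the means lie between −0.73 (MIGA1) and 0.26 (ID2).

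The wider interferon response was followed in a list of 62 other genes from general knowledge, of which 59 were measured. Higher on both arrays were 54, and 1, LY6E, was lower on both, at −0.09 and −0.34. Of all measured genes, 26.8% were higher and 26.7% lower on both. The list's median ratio was 0.49 and 0.52 on the arrays, and that of the gene means was 0.44, against −0.0042 for all measured genes. Where 0.0724% of all measured genes were called higher, 4 genes of the list were called, all of them higher. They were MX2 at 1.65 and 1.62 and MX1 at 1.45 and 1.28, which encode antiviral dynamin-like GTPases, XAF1 at 1.07 and 1.39, a proapoptotic gene, and IFI6 at 1.36 and 1.09, which encodes a small membrane protein.

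Against these 59 genes, IFI44L had the higher mean ratio in every case. CMPK2 had 1 gene of the list above it, MX2, and 58 below. RSAD2 had 12 above and 47 below. IFI44 had 25 above and 34 below, near the middle of the list. The larger member of each pair stood at the top of the list, and the smaller members stood well inside its range. As the 4 genes were chosen with these ratios known, their places describe sizes only.

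**Figure D5:**
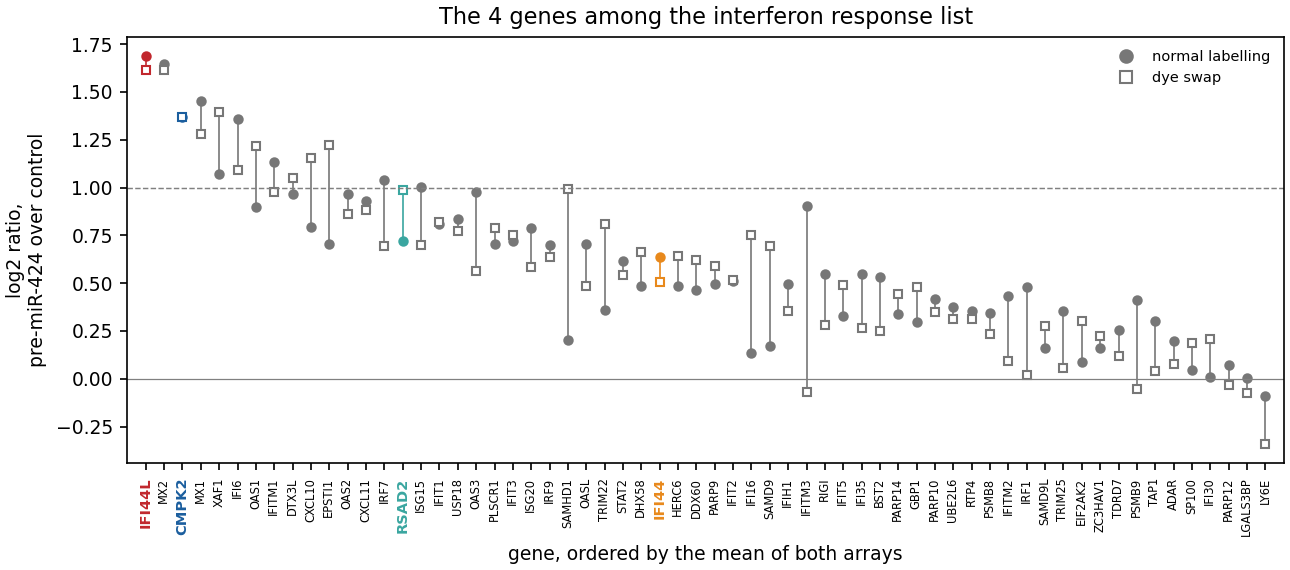
Log2 ratios of pre-miR-424 over control for the 4 genes (coloured) and 58 of the 59 other interferon response genes (grey, 1 not shown), ordered by the mean of both arrays. Filled circles are the array with normal labelling, open squares are the dye swap, lines join the arrays, and the dashed line is 2-fold. IFI44L leads at a mean of 1.65, CMPK2 follows MX2, RSAD2 lies at 0.85 and IFI44 at 0.57, and LY6E is last at −0.21.

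Upstream of these genes, 18 of 20 interferon ligands, receptors and signalling genes were measured, and 10 were higher and 3 lower on both arrays, with 0 called and a median of 0.10. Among all measured genes, 26.8% were higher and 26.7% lower on both arrays, with 0.0724% called higher and 0.029% lower. The gene for the transcription factor IRF7 was highest, at 1.04 and 0.69, and the one for the receptor chain IFNLR1 was lowest, at −0.20 and −0.24. Of the factors that bind the response element, STAT2 had ratios of 0.62 and 0.54 and IRF9 of 0.70 and 0.64. USP18, a negative regulator of the receptor, was at 0.84 and 0.77. STAT2, IRF7, IRF9 and USP18 are in both lists. IFNB1 and IFNL3 were not measured.

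CMPK2 was also set beside 25 genes of pyrimidine nucleotide kinases and synthesis, all measured. Of these, 5 were higher and 8 lower on both arrays, 0 were called, and the median was −0.011. Of all measured genes, 26.8% were higher and 26.7% lower on both arrays, and 0.0724% were called higher and 0.029% lower. Nothing is read from the counts of this list. CMPK1, the cytosolic UMP-CMP kinase, had ratios of −0.17 and −0.18, in contrast to 1.37 and 1.37 for CMPK2. The highest was UMPS, which makes uridine monophosphate, at 0.63 and 0.62, and the lowest was RRM1, the large subunit of ribonucleotide reductase, at −0.08 and −0.40. CMPK2, which was chosen with its ratio known, was above every gene of the list on both arrays.

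RSAD2 was set beside 13 genes, those of other radical SAM enzymes, of cytosolic iron-sulfur assembly, and FDPS. This assembly supplies such enzymes in the cytosol with their cofactor, and FDPS is an enzyme of isoprenoid synthesis reported to interact with viperin. All 13 were measured, 4 were higher and 4 lower on both arrays, 0 were called, and the median was −0.07. The shares over all measured genes were 26.8% higher and 26.7% lower on both arrays, with 0.0724% called higher and 0.029% lower. The highest was CIAO1 at 0.11 and 0.32 and the lowest MMS19 at −0.57 and −0.17, both of the assembly machinery. RSAD1, another radical SAM gene, had ratios of −0.16 and −0.37, and FDPS had 0.18 and 0.09. None of the 13 reached the ratio of RSAD2 on either array.

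The 3 measured genes with ratios most like each member were found by Euclidean distance over both arrays. For IFI44L they were MX2 at a distance of 0.040, CMPK2 at 0.41 and MX1 at 0.41, all interferon-stimulated genes. For CMPK2 they were NECTIN2, a cell adhesion gene, at 0.11, MX1 at 0.12 and SWAP70 at 0.26. For RSAD2 they were UBE2V1 at 0.027, ERLIN1 at 0.075 and CFL2, which encodes an actin-binding cofilin, at 0.077. For IFI44 they were the pseudogene CIDECP1 at 0.0098, whose probe may also bind transcripts of similar sequence, the G protein subunit gene GNB4 at 0.029 and the autophagy gene WIPI1 at 0.030. In neither pair was a gene among the 3 most like its neighbour. With 2 arrays of 1 replicate, and many more genes at ratios like those of IFI44 and RSAD2 than at those of IFI44L and CMPK2, these distances describe sizes only.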

How the data were processed

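Groups and dyes were taken from the labels, which call the arrays technical replicates. They counted as 1 replicate, and sizes were given without p-values. In the deposited scanner files (Feature Extraction 10.7.3.1, array design on hg19) stand median spot and local background intensities per channel, on a linear scale and not normalized, processed intensities corrected for background and dye, and a log10 ratio of red (Cy5) to green (Cy3). A table of log2 ratios was deposited by the authors as well, for which the submitters' processing notes name limma, and whose steps and direction are not given in the sources used here. Set against the ratios computed here, its columns had Cy5 in the numerator on both arrays (Pearson's r across probes 0.991 and 0.988), with column medians of 0.0236 and 0.0355. Of the per-sample columns, 0 belonged to other samples.

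Using R 4.3.3 and limma 3.58.1, normexp (offset 50, which draws ratios of dim probes towards 0) was fitted to the median signals of all spots. After removal of control spots, loess was applied within arrays, and spots of a probe were averaged. Of 42405 probes, 25664 were measured, that is well above background in Cy3 and Cy5 on each array (at most of the spots) and free of outlier spots, which 319 were not. A gene was given by its brightest measured probe. Of 27134 probes with RefSeq accessions, 25771 (95.0%) matched a symbol in the RefSeq table (GRCh38.p14), used for names, order and promoter windows only. Probes without a match took no part in the lists, and 1 gene of the interferon list had no matched probe. Python 3.11.15, pandas 2.3.3, numpy 2.4.6 and matplotlib 3.10.9 were used, and the steps were tested on simulated data.

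The 4 genes and all gene lists were chosen with earlier results of these data known. The genes named were, by rule, these 4, their 5 measured neighbours on each side, the called, highest and lowest genes of each list, and the 3 nearest genes of each of the 4. Adjacent pairs and the list genes CMPK1, RSAD1, FDPS, STAT2, IRF9 and USP18 were named beyond it after their values were seen. Values of some genes and markers are not reported here. The alternatives tried were signals without background correction or with a normexp offset of 16, centring on the median, the ratios of the scanner software and of the authors, each array alone, other filters and limits, and the mean over probes.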

Additional observations from a re-analysis of the deposited data

How the results depend on the processing

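The order IFI44L, CMPK2, RSAD2, IFI44 and the calls of IFI44L and CMPK2 held under all settings run. Part of this was fixed beforehand. Each gene had 1 probe, free of outlier spots, so other filters or limits and the mean over probes could not change its ratios. A call on both arrays also holds on each alone, on their mean and at 1.5-fold. Of 118 alternative values, 100 moved by less than the spread (SD) between arrays or, for counts, by at most 1.5 times. That count overstates stability, because each array's value for a gene or pair difference lies within that SD of the mean by arithmetic. No ratio of the 4 genes and neither pair difference changed sign. The difference IFI44L minus IFI44 stayed between 1.05 and 1.12 and RSAD2 minus CMPK2 between −0.65 and −0.38. These ranges hold single arrays only after loess. With median centring in place of loess, the SD between arrays of IFI44L minus IFI44 rose from 0.043 to 0.218. That of IFI44 rose from 0.093 to 0.371 and that of IFI44L from 0.050 to 0.152, while that of RSAD2 fell from 0.188 to 0.166. The close agreement of the arrays on the first pair thus depended on loess. IFI44L moved to 1.71 with the scanner software's ratios. CMPK2, whose arrays differ by only 0.00068 (SD), moved to 1.42 with an offset of 16, 1.38 without background correction, 1.35 with median centring and 1.49 with the scanner's ratios. The probes called (36, 14 higher and 22 lower) became 67 (21 and 46) with the scanner's ratios, 218 (108 and 110) at 1.5-fold, and 86 (52 and 34) to 133 (41 and 92) on either array alone. The genes called (14, 10 higher and 4 lower) became 24 (16 and 8), 140 (86 and 54) and 43 (35 and 8) to 76 (28 and 48), and 23 (17 and 6) with 2-fold on the mean. The interferon list's median of 0.44 became 0.51 with the scanner's ratios and 0.49 to 0.52 on single arrays, and that of the genes beside IFI44L and IFI44 moved from −0.040 to between −0.068 and 0.041 on single arrays. The median beside CMPK2 and RSAD2 went from 0.0081 to −0.097 with normal labelling alone, 0.131 on the swap alone and −0.014 with median centring, so that the sign of neither neighbour median is settled. The balance of calls turned too, to more genes lower on the swap alone and to more probes higher with normal labelling alone. The causes were not tested. No paired analysis was possible because both arrays are 1 replicate with both RNAs on each array. The number of arrays and 1 probe per gene limit the precision of every value, and no spread between cultures can be had.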
